A study of Mus musculus with 6 samples.

Results

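Secreted antimicrobial and acute phase proteins were followed in the corneal epithelium of mice that lack *Rela* in keratin 14-expressing cells. The list holds 10 genes, chosen by name with earlier results of these data known, namely *Lcn2*, *Saa1*, *Saa3*, *Slpi*, *Ltf*, *Lyz2*, *Camp*, *Defb1*, *Pigr* and *Hp*. Of these, 9 were among the 17554 genes of the deposited table, and *Camp* was not analysed here. The separated epithelial layer of 3 control mice, which the labels call WT, and of 3 mutant mice, labelled Rela-/- and described by the study as *Krt14-Cre; Rela* f/f, was profiled by bulk RNA-seq at 2 months of age on the C57BL/6 strain, from independent biological samples. Cre is driven by the keratin 14 promoter, so *Rela* stays intact in cells that have never used this promoter. In bulk RNA, more or fewer cells of a type and more or less RNA per cell cannot be told apart.

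These proteins are made by epithelia that face the outside world, by phagocytes and by the liver. Lipocalin 2 binds bacterial siderophores, lactoferrin binds iron, lysozyme cleaves the bacterial cell wall and β-defensins damage bacterial membranes, while serum amyloid A proteins and haptoglobin rise in the blood during the acute phase response. Several of these genes are known to be induced by IL-1, TNF, IL-6 or IL-22, through NF-κB, C/EBP and STAT3, and RelA, the product of *Rela*, is a transactivating subunit of NF-κB. Comparing the genotypes therefore asks how these genes are expressed in an epithelium from which most of the *Rela* transcript was lost.

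The promoter windows of *Saa3*, *Lcn2* and *Saa1* are shown first. *Saa3* and *Lcn2* were the members that rose in the mutants at an adjusted p under 0.05, *Saa1* is the close relative of *Saa3* on the same chromosome, and a letter match to the consensus site of NF-κB (κB) is one feature by which they differ. Each window runs from 250 bases before to 50 bases after the RefSeq start site in GRCm38.p6, 5′ to 3′ on the strand of the gene, which is the minus strand for each of them. Capitals mark a match to the κB consensus on either strand. The *Lcn2* window is chr2:32387690-32387989, the *Saa1* window is chr7:46742931-46743230 and the *Saa3* window is chr7:46715627-46715926.
Lcn2: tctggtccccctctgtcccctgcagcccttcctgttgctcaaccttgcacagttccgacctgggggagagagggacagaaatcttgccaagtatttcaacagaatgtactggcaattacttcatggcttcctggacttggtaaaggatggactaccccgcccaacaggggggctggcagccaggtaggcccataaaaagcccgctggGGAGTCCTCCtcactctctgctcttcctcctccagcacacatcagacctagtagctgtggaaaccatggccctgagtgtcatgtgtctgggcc
Saa1: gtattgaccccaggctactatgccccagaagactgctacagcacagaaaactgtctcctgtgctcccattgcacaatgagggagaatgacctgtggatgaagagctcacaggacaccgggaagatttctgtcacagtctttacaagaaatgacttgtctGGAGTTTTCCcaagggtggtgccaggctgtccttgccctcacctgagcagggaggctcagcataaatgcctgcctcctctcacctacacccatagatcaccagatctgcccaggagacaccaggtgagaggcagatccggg
Saa3: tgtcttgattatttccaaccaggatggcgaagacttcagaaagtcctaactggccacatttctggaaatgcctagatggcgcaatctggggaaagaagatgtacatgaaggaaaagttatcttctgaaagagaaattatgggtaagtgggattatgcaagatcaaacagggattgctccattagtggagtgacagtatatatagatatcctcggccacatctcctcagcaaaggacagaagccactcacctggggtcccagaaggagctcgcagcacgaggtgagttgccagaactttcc

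In the *Lcn2* window the match GGAGTCCTCC lies at -43 to -34 relative to the start site, and in the *Saa1* window GGAGTTTTCC lies at -91 to -82. No κB match was present in these 300 bases of *Saa3*, *Slpi*, *Ltf*, *Lyz2* or *Pigr*, and *Defb1* and *Hp* were not examined. Of all 32851 RefSeq promoter windows of this length, 11.2% held a κB match. On either strand, the AP-1 motif TGANTCA, held by 7.81% of all windows, was in none of the members' windows, and the STAT motif TTCNNNGAA, held by 8.30%, was in that of *Pigr* alone among the members analysed. Beside the expression values given below, *Lcn2*, with a match, and *Saa3*, without one, were higher in the mutants, whereas the values of *Saa1*, with a match, overlapped between the genotypes. A match describes letters in a window and does not show that a factor binds there.

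*Rela* itself was at 33.4 to 36.5 FPKM, the deposited level per length of transcript and per library total, in control mice and at 4.93 to 5.72 FPKM in mutant mice, a log2 fold change of -2.75. Total expected counts were between 19492942 and 19733834 per sample, so that 3 counts, the least by which a gene was held to be present, correspond to 0.152 to 0.154 CPM, the count scaled to the total alone. This limit covers counting error only. *Krt12*, which marks the corneal epithelium, was at 17005 to 21194 FPKM in all 6 samples. *Krt14*, whose promoter drives Cre, rose from 178 ± 27 to 1753 ± 394 FPKM (SD, n = 3 each). Mutant sample 1 stood apart from the other mutant samples on the second principal component of log2 CPM, at 24.1 against -9.5 and -20.6, and the members' results are also given without it.

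Of the 9 genes, 6 had enough counts for edgeR's filter, which left 12667 genes. *Saa3* and *Lcn2* rose and *Defb1* fell at an adjusted p under 0.05 (quasi-likelihood test, Benjamini-Hochberg adjustment over all genes tested). Over all genes 7.82% of tested genes rose and 5.42% fell at this threshold, 13.2% in all. *Saa3* and *Lcn2* reached the filter only through their counts in mutant mice, so the share of members that changed is not set against these percentages. At the stricter thresholds that the study's methods set (adjusted p not above 0.001, fold change not below 2), edgeR called 0 members, beside 1.37% of tested genes. With an unadjusted p under 0.05, 3 members passed, beside 28.1% of tested genes. DESeq2 called 2 members, *Lcn2* and *Saa3*, at the stricter thresholds, beside 2.42% of the genes it tested. With limma 0 members were called on log2(FPKM + 1), beside 0.9% of genes, and 1, *Saa3*, on log2(FPKM + 0.1), beside 1.27%. Counting only whether the groups overlap in FPKM, *Saa3*, *Lcn2* and *Lyz2* were higher in every mutant than in any control sample, *Defb1* was lower, and the other 5 genes overlapped. Over all 17554 genes 14.2% were higher without overlap and 11.6% lower.

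**Figure D1:**
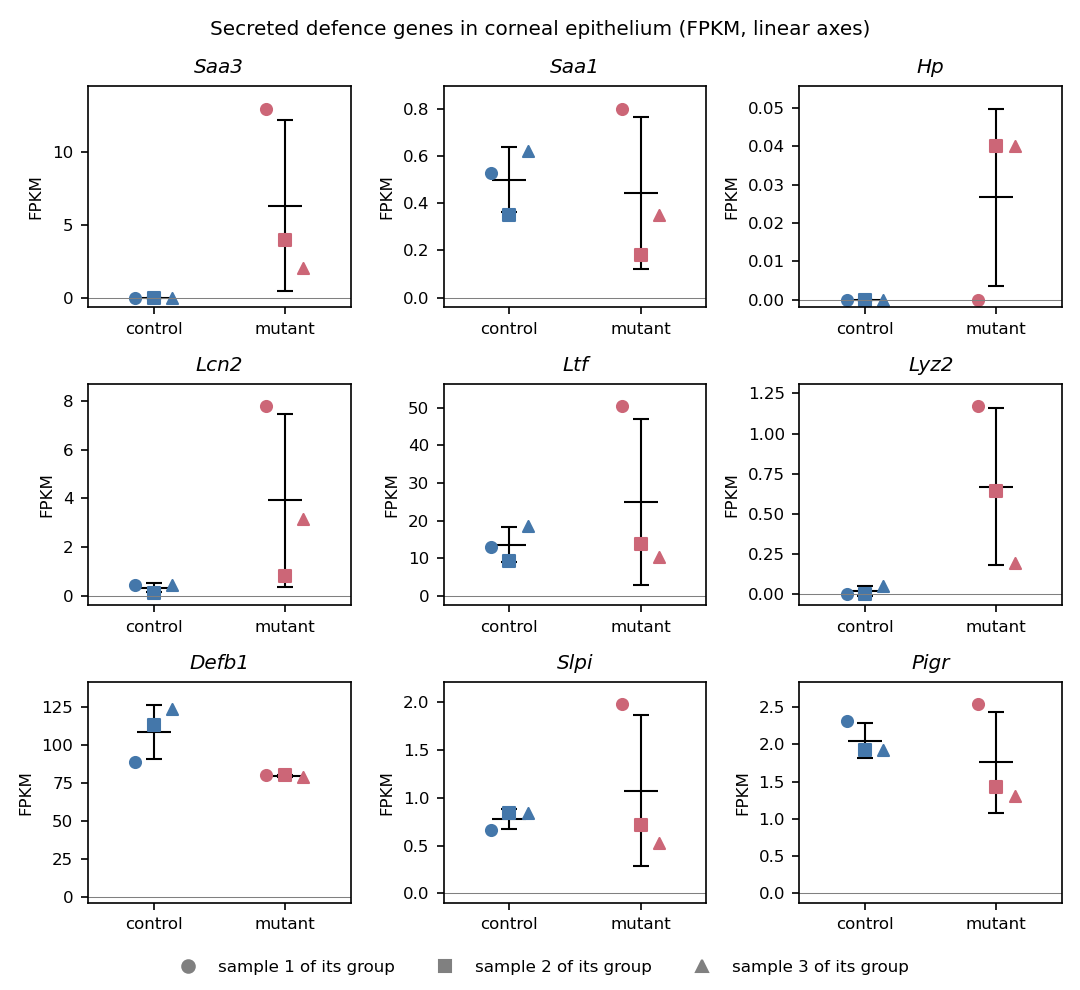
FPKM of the 9 genes in each sample, on linear axes that differ between panels. Circles, squares and triangles are samples 1, 2 and 3 of each group, horizontal lines are means and bars are SD (n = 3). *Saa3* was at 0 in each control sample and at 2.02 to 12.95 FPKM in the mutants, and mutant sample 1 was the highest of all 6 samples in 7 of the 9 panels.

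*Saa3* (gene 20210, chromosome 7 of GRCm38, 46711998 to 46715676, minus strand) encodes a serum amyloid A that is made mainly outside the liver, by epithelia and macrophages among others. It had 0 counts in each of the 3 control samples and 127, 39 and 20 counts in mutant samples 1, 2 and 3, which equal 12.95, 3.96 and 2.02 FPKM. The gene was thus detected in all mutants and in no control, with 6.41 times as much in the highest mutant as in the lowest. Against a level of 3 counts per control library, *Saa3* was at least 20.8-fold higher in the mean of the mutants, and at least 6.50-fold to 42.7-fold higher in the single mutant samples (edgeR adjusted p = 0.0089). The call held with every sample left out in turn, with an edgeR adjusted p between 0.0020 and 0.040. Without mutant sample 1 the mean of the other mutants was at least 9.78-fold higher than the same level. An exact permutation test of log2(FPKM + 1) gave a two-sided p of 0.1, the smallest that 3 against 3 samples allow. Of the 50-base windows of its GENCODE transcripts, 4.15% also occur in transcripts of other genes.

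The liver-type relative *Saa1* (gene 20208, chromosome 7, 46740497 to 46743071, minus strand) was at 0.53, 0.35 and 0.62 FPKM in control mice and at 0.80, 0.18 and 0.35 FPKM in mutant mice, from 2 to 10 counts per sample. The groups overlapped, with both the highest and the lowest value among the mutants, and the gene did not reach the filter (exact permutation test, two-sided p = 0.8). *Saa1* shares 31.1% of its 50-base windows with *Saa2*, so reads of these genes may be divided between them, but *Saa2* had 1 count in mutant sample 2 and 0 elsewhere. Haptoglobin (*Hp*, gene 15439, chromosome 8, 109575128 to 109579172, minus strand), the plasma protein that captures free haemoglobin, had 0 counts in the control samples and in mutant sample 1 and 1 count in each of the other mutant samples. *Hp* was therefore not detectable at this depth in either genotype, and among the acute phase members only *Saa3* was higher in all mutants than in all controls.

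*Lcn2* (gene 16819, chromosome 2, 32384637 to 32387739, minus strand) encodes lipocalin 2, which withholds iron from bacteria and is made by neutrophils and by stressed epithelia. Its level was 0.43, 0.12 and 0.43 FPKM in control samples, from 7, 2 and 7 counts, and 7.78, 0.80 and 3.17 FPKM in mutant samples, from 126, 13 and 52 counts. Each mutant lay above each control, but the mutants spanned a 9.72-fold range and mutant sample 2 was at less than double the highest control. The mean rose from 0.33 ± 0.18 to 3.92 ± 3.55 FPKM (SD, n = 3 each), a log2 fold change of 3.54 with a standard error of 0.81 (edgeR adjusted p = 0.019). The call was lost with any single control sample left out. Without control sample 1, 2 or 3 the edgeR adjusted p was 0.059, 0.098 and 0.066, and with limma on log2(FPKM + 1) it was 0.058. Without mutant sample 1 the log2 fold change was 2.56 (edgeR adjusted p = 0.027). The order of the mutants differed between the 2 genes, as *Saa3* was higher in mutant sample 2 than in sample 3 and *Lcn2* was lower.

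Lactoferrin, the product of *Ltf* (gene 17002, chromosome 9, 111019292 to 111042766, plus strand), is an iron-binding protein of tears, milk and neutrophil granules. Control samples had 12.92, 9.31 and 18.43 FPKM of *Ltf* and mutant samples 50.39, 13.85 and 10.35 FPKM. Only mutant sample 1 lay outside the control range. The log2 fold change was 0.87 with a standard error of 0.52 and a 95% interval from -0.29 to 2.04 (edgeR adjusted p = 0.31), and without mutant sample 1 it was -0.17 (edgeR adjusted p = 0.68). A difference in either direction thus remained possible, and the sign of the estimate was set by 1 mouse.

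*Lyz2* (gene 17105, chromosome 10, 117266597 to 117292909, minus strand) encodes the lysozyme of macrophages and neutrophils. It had 0, 0 and 1 count in the control samples and 24, 13 and 4 counts in the mutant samples, or up to 0.05 FPKM against 1.17, 0.64 and 0.19 FPKM. Every mutant exceeded every control, although mutant sample 3 did so by 3 counts. Relative to 3 counts per control library, the mean of the mutants was at least 4.58-fold higher, and the single mutants at least 1.30-fold to 8.08-fold higher. The gene did not reach the edgeR filter and has no value in that test. Without the filter the edgeR adjusted p was 0.0087, and DESeq2 gave 0.0044. In the edgeR analyses with 1 sample left out that let the gene through the filter, the adjusted p was between 0.0042 and 0.080. Without mutant sample 1 it did not reach the filter, and the mean of the other mutants was at least 2.83-fold above 3 counts. *Lyz2* shares 15.4% of its 50-base windows with *Lyz1*, the lysozyme of Paneth cells, which lies within its span and had at most 2 counts in any sample.

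*Defb1* (gene 13214, chromosome 8, 21776555 to 21795185, plus strand) encodes β-defensin 1, the defensin that many epithelia make without induction. It was the most abundant of the 9 transcripts in each sample on the FPKM scale, at 88.85, 113.19 and 123.55 in control mice and 80.01, 79.89 and 78.94 in mutant mice. The mutants lay within 1.01-fold of each other and below all controls, which spanned 1.39-fold. *Defb1* fell by 0.45 on the log2 scale with a standard error of 0.12 (edgeR adjusted p = 0.035, and 0.042 without mutant sample 1). The edgeR adjusted p was 0.12 without control sample 2 or control sample 3, 0.088 without mutant sample 2 and 0.080 without mutant sample 3. Of the 3 members that changed, *Defb1* was the one with the smallest fold change and the only one that control mice already expressed at a high level.

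*Slpi* (gene 20568, chromosome 2, 164354070 to 164356507, minus strand) encodes a secreted inhibitor of leukocyte proteases such as elastase. Its level was 0.66, 0.84 and 0.84 FPKM in controls and 1.98, 0.72 and 0.53 FPKM in mutants, so the highest and the lowest samples were both mutants. The log2 fold change was 0.46 with a 95% interval from -0.64 to 1.56 (edgeR adjusted p = 0.58), and -0.32 without mutant sample 1 (edgeR adjusted p = 0.66). *Pigr* (gene 18703, chromosome 1, 130826684 to 130852249, plus strand), the receptor that carries polymeric IgA and IgM across epithelia and is shed with them as secretory component, was at 2.32, 1.92 and 1.92 FPKM in controls and at 2.54, 1.43 and 1.31 FPKM in mutants. Mutant sample 1 was again the highest, and the other mutant samples were the lowest. Its log2 fold change was -0.22 with a 95% interval from -0.76 to 0.31 (edgeR adjusted p = 0.59), but -0.60 without mutant sample 1 (edgeR adjusted p = 0.032).

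**Figure D2:**
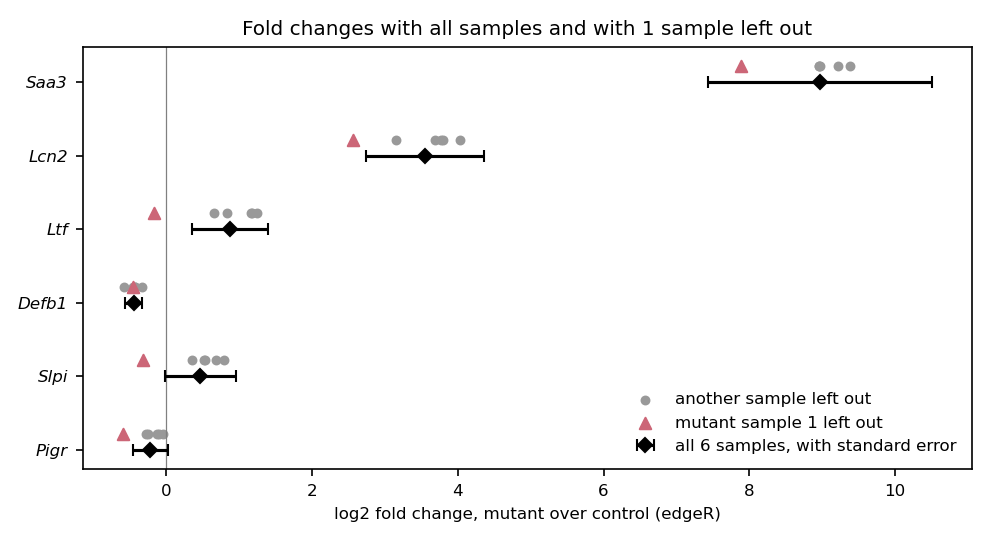
Log2 fold change of the 6 tested genes, mutant over control. Diamonds with bars are the estimates and standard errors from all 6 samples, and the smaller symbols are estimates with 1 sample left out. Without mutant sample 1 (triangles), *Ltf* moved to -0.17, *Slpi* to -0.32 and *Pigr* to -0.60, while *Saa3* and *Lcn2* stayed above 0. The estimate for *Saa3*, at 0 counts in all controls, depends on the prior count of the fit.

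On the FPKM scale the order in control mice was *Defb1* (108.5 ± 17.8), *Ltf* (13.6 ± 4.6), *Pigr* (2.05 ± 0.23), *Slpi* (0.78 ± 0.10), *Saa1* (0.50 ± 0.14), *Lcn2* (0.33 ± 0.18) and *Lyz2* (0.017 ± 0.029), with *Saa3* and *Hp* at 0 (SD, n = 3 each). *Saa1* and *Lcn2* overlapped there, and *Lyz2* was at 1 count. In mutant mice *Defb1* (79.6 ± 0.6) and *Ltf* (24.9 ± 22.2) kept the highest means, followed by *Saa3* (6.31 ± 5.83), *Lcn2* (3.92 ± 3.55), *Pigr* (1.76 ± 0.68), *Slpi* (1.08 ± 0.79), *Lyz2* (0.67 ± 0.49), *Saa1* (0.44 ± 0.32) and *Hp* (0.027 ± 0.023). Below *Defb1* and down to *Saa1*, neighbours in this order overlapped over the mutants. *Saa3* thus went from the bottom of the order to the third place.

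Mutant sample 1 had the highest value of all 6 samples for *Saa3*, *Lcn2*, *Ltf*, *Lyz2*, *Saa1*, *Slpi* and *Pigr*, which makes 7 of 9 genes beside 20.7% of the genes in the table. Relative to the mean of the other mutants it was 4.33 times as high for *Saa3*, 4.16 for *Ltf*, 3.92 for *Lcn2*, 3.17 for *Slpi*, 3.02 for *Saa1*, 2.82 for *Lyz2* and 1.85 for *Pigr*. The ratio was 1.01 for *Defb1*. For *Lcn2*, *Saa1*, *Slpi*, *Ltf* and *Pigr* the ratio of the highest to the lowest value was larger among the mutants than among the controls, and for *Defb1* it was smaller.

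Since *Lcn2*, *Ltf* and *Lyz2* are also leukocyte genes, markers of the cells that could accompany the epithelium were examined. The summed FPKM of the 10 neutrophil markers in the table was 105 to 109 in controls and 125 to 231 in mutants, highest in mutant sample 1. Its largest parts were *Itgam*, at 51.0 to 94.8 FPKM with overlapping groups, and the stefin genes *Stfa1* and *Stfa2*, which encode inhibitors of cysteine proteases and rose by 1.22 and 7.15 on the log2 scale (edgeR adjusted p = 0.0047 and 0.0012). *Stfa2* reached the filter only through its counts in mutant mice, and without it 1 of 5 tested markers rose, beside 7.82% of all tested genes. The other 4 tested markers did not pass, with log2 fold changes of 0.19 for *Csf3r*, -0.05 for *Cxcr2* and 0.10 for *Itgam*. The fourth, *Ly6g*, a defining neutrophil gene, was at 3.27, 2.21 and 4.12 FPKM in controls and at 1.81, 1.94 and 2.03 FPKM in mutants, lower in each mutant than in any control (log2 fold change -0.74, edgeR adjusted p = 0.095), and the defining genes *Mpo*, *Retnlg* and *Cd177* had 3 or fewer counts in each sample. *Mmp9* was not tested, with 0, 1 and 0 counts in controls and 13, 5 and 3 in mutants, higher in each mutant. The 15 macrophage and monocyte markers summed to 19.5 to 23.6 FPKM in controls and 26.0 to 29.5 in mutants, most of it *Cd68* (log2 fold change 0.22, edgeR adjusted p = 0.22). Of 5 tested, *C1qb* passed (log2 fold change 1.27, edgeR adjusted p = 0.043), but not with any single sample left out (edgeR adjusted p between 0.070 and 0.13), and *Adgre1*, *Fcgr1* and *Ms4a7* had 3 or fewer counts in each sample. *Mpeg1* did not pass (7, 4 and 5 against 12, 11 and 17 counts, log2 fold change 1.30, edgeR adjusted p = 0.060). *C1qb* and *Mpeg1* reached the filter only through their counts in mutant mice, and none of the other 3 tested passed. Of those not tested, *C1qc* (6, 2 and 7 against 12, 9 and 9 counts) and *Fcer1g* (1, 5 and 4 against 9, 7 and 10) were higher in each mutant, as was *Fcgr1*. *Csf1r*, *Ptprc* and *Tyrobp* overlapped, with *Ptprc* at 0.01 to 0.15 FPKM. As the summed neutrophil markers were mostly *Itgam* and stefin genes, the sum cannot show how many neutrophils were present. What part these cells have in the values of *Lcn2*, *Ltf*, *Saa3* and *Lyz2* was not tested.

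Of the other lists, the 3 tested dendritic cell markers, the 2 tested lymphocyte markers and the 1 tested endothelial marker did not pass in either direction. The lacrimal gland also secretes lactoferrin and lysozyme, and markers of it and of the meibomian gland formed 1 list with 4 tested genes. *Elovl4* and *Soat1*, which act in lipid metabolism and stand for the meibomian gland, rose. *Elovl4*, with 3, 2 and 14 counts in controls and 576, 169 and 232 in mutants, would not have reached the filter on its control counts. *Aqp5*, a water channel listed for the lacrimal gland and the most abundant gene of the list, was at 3680 to 4116 FPKM in controls and at 2809 to 3432 FPKM in mutants, lower in each mutant (log2 fold change -0.27, edgeR adjusted p = 0.0998), and *Awat2* did not pass (-0.62, edgeR adjusted p = 0.46). At this level in separated corneal epithelium, *Aqp5* cannot show how much lacrimal tissue was present. *Esp6*, also listed but not tested, had 1, 1 and 1 counts in controls and 16, 8 and 7 in mutants, higher in each mutant. *Lpo*, the lactoperoxidase of tears, was at or below 0.14 FPKM throughout. Of 7 tested conjunctival markers *Krt8* and *Krt13* fell, and the goblet cell mucin *Muc5ac* had 3 or fewer counts in each sample. Among 3 tested markers of the stroma, *Dcn*, a proteoglycan gene that reached the filter only through its mutant counts (3, 2 and 1 in controls and 66, 34 and 14 in mutants), rose, and *Pdgfra* fell. Of those not tested, the collagen genes *Col1a1* (1, 1 and 2 against 23, 23 and 6 counts) and *Col3a1* (1, 0 and 0 against 32, 15 and 6) and the vimentin gene *Vim* (1, 0 and 2 against 19, 9 and 9) were higher in each mutant, while *Lum* (0, 1 and 0 against 23, 10 and 0) and *Col1a2* overlapped. *Dcn* and *Col3a1* had the same order of mutants as *Saa3* and *Lyz2*. So did *Adm*, *Serpina3n*, *Mt1*, *Mt2* and *Hmox1*, which are given below, and the order is thus not particular to the stromal list. The list summed to 2.61 to 2.99 FPKM in controls and 2.30 to 5.55 in mutants, *Kera* and *Aldh1a2* had 3 or fewer counts in each sample, and the part of stromal cells in the members' values was not tested. Of 10 corneal epithelial markers, *Krt14* and *Clu* rose, *Krt15* and *Aldh3a1* fell and the other 6 did not pass. Beside the calls of these marker lists, 7.82% of all tested genes rose and 5.42% fell. The adjusted p of *Krt13* was 0.063 and 0.066 without control sample 1 or 3, that of *Aldh3a1* was above 0.05 with any single sample left out (0.064 to 0.15), and that of *Krt15* with any but mutant sample 1 (0.059 to 0.13).

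Further genes listed for antimicrobial or related roles were then considered. This list and those below were also chosen with earlier results of these data known. Of 40 listed, 24 were in the table and 12 were tested, of which 8 rose, 1 fell and 3 did not pass, where 7.82% of all tested genes rose and 5.42% fell. The median log2 fold change of the 12 was 0.83, and over all tested genes it was -0.0028. *Chil1* reached the filter only through its counts in mutant mice, and without it 7 of 11 rose with a median of 0.81. *Wfdc2*, which encodes a secreted whey acidic protein like SLPI, rose from 46.3 ± 3.5 to 94.9 ± 13.2 FPKM (SD, n = 3 each, log2 fold change 1.03, edgeR adjusted p = 3.8e-04). *Adm*, the gene for adrenomedullin, a vasoactive peptide with antibacterial activity, rose by 3.68 on the log2 scale (edgeR adjusted p = 9.3e-04), and *Anxa1*, which encodes the anti-inflammatory annexin A1, by 0.81 (edgeR adjusted p = 0.0023). The chitinase-like gene *Chil1* had no more than 0.03 FPKM in controls and 3.75, 0.55 and 0.37 FPKM in mutants, again highest in mutant sample 1. Its call was lost without any single control sample (edgeR adjusted p between 0.055 and 0.088). *Pglyrp4*, *Wfdc5*, *Ccl28* and *Cst3* were the other genes that rose, and each of these calls was lost with some samples left out. The edgeR adjusted p was then 0.061 to 0.15 for *Pglyrp4* (any control sample or mutant sample 2), 0.10 to 0.13 for *Wfdc5* (control sample 1 or 2 or mutant sample 2) and 0.061 to 0.072 for *Cst3* (control sample 2 or 3). For *Ccl28* it was 0.11 to 0.13 with any sample but mutant sample 3 left out, with 0.11 without mutant sample 1. *Plac8* fell from 252 ± 29 to 165 ± 13 FPKM (SD, n = 3 each, log2 fold change -0.60, edgeR adjusted p = 0.0060). The inducible β-defensin *Defb14* was not tested, with 0, 0.52 and 0 FPKM in controls and 2.75, 1.54 and 1.19 FPKM in mutants.

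Of 31 other acute phase genes, 21 were in the table and 7 were tested. Of these 5 rose and the other 2 did not pass, where 7.82% of all tested genes rose and 5.42% fell. The median log2 fold change was 1.32, and over all tested genes it was -0.0028. *Serpina3n*, which encodes an extracellular protease inhibitor, rose from 0.22 ± 0.11 to 13.8 ± 6.3 FPKM (SD, n = 3 each, log2 fold change 5.95, edgeR adjusted p = 7.0e-05). It had 4, 10 and 13 counts in controls and 825, 546 and 320 in mutants, and would not have reached the filter on its control counts. The 5 genes that rose and the median of 1.32 include it. The metallothioneins *Mt1* and *Mt2*, which bind zinc and copper inside the cell, rose by 1.32 and 1.56 on the log2 scale (edgeR adjusted p = 1.3e-04 and 2.0e-04). *Cd14* and *Steap4* also passed (edgeR adjusted p = 0.048 and 0.040), with less certainty. *Cd14* did not pass with any single sample left out (0.066 to 0.15, and 0.11 without mutant sample 1), with DESeq2 (adjusted p = 0.13), upper-quartile scaling, no filter or the replicate block, and *Steap4* did not pass without any single control sample (0.11 to 0.16). *Cp* and *Serpina1b* did not pass. The plasma proteins typical of the liver were near 0, as *Saa2*, *Orm3*, *Crp*, *Fgg*, *Itih4*, *Lbp*, *Lrg1* and *Alb* had 3 or fewer counts in each sample.

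Receptors, partners and processing enzymes of these proteins came to 15 genes in the table, of which 10 were tested. *Klk7* and *Klk8*, serine proteases of stratified epithelia of the kind that process antimicrobial peptides, rose by 5.21 and 2.26 on the log2 scale (edgeR adjusted p = 7.4e-05 for each). *Hmox1*, the haem oxygenase that acts downstream of haptoglobin-bound haemoglobin, rose by 2.41 (edgeR adjusted p = 0.0011), and *P2rx7*, an ATP-gated channel, fell by 0.51 (edgeR adjusted p = 0.039) although its groups overlapped. The call of *P2rx7* held only with mutant sample 2 left out, and the edgeR adjusted p was 0.054 to 0.15 with each of the others left out, 0.068 without mutant sample 1. *Klk7* reached the filter only through its counts in mutant mice. Of the genes not tested, *Cd163* was lower in each mutant (8, 5 and 8 against 3, 0 and 3 counts) and *Cd36* was higher (0, 0 and 0 against 1, 2 and 1). The lipocalin 2 receptor gene *Slc22a17*, the lactoferrin receptor gene *Lrp1* and the serum amyloid A receptor genes *Tlr2*, *Tlr4* and *Scarb1* did not pass, with log2 fold changes between -0.17 and 0.10. The median of the 10 tested genes was 0.094, and that of the 9 without *Klk7* was 0.084, against -0.0028 over all tested genes.

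Among 38 genes of the cytokine and transcription factor pathways that induce these proteins, 33 were in the table and 30 were tested, of which 13 rose, 2 fell and 15 did not pass, with a median log2 fold change of 0.22. Over all tested genes 7.82% rose and 5.42% fell, with a median of -0.0028. Without *Il1b*, whose control counts alone did not reach the filter, 12 of 29 rose with a median of 0.18. *Socs3*, the feedback inhibitor of IL-6-type signalling, rose from 0.27 ± 0.09 to 25.0 ± 4.8 FPKM (SD, n = 3 each, log2 fold change 6.54, edgeR adjusted p = 1.0e-06). *Tnfrsf1a*, the TNF receptor, rose by 0.84 and *Cebpb*, a transcription factor of the acute phase response, by 0.64 (edgeR adjusted p = 6.6e-04 and 0.0013). Of the ligands, *Tnf* fell by 1.73 on the log2 scale (edgeR adjusted p = 0.010). *Nfkbia*, the NF-κB inhibitor that is itself an NF-κB target, fell by 0.34 (edgeR adjusted p = 0.028, but 0.068 to 0.11 without control sample 1 or 3 or mutant sample 3). Others that rose were *Il1a*, *Il1b*, *Il6ra*, *Osmr*, *Il22ra1*, *Stat3*, *Cebpd*, *Nfkb1*, *Rel* and *Vdr*. Of these, *Il1b*, which reached the filter only through its mutant counts, and *Nfkb1* did not pass without any single control sample (edgeR adjusted p of 0.089 to 0.11 and of 0.059 to 0.074). *Il6ra* did not pass without control sample 1 or 3 or mutant sample 2 or 3 (0.074 to 0.11), nor did *Osmr* with any sample but mutant sample 1 left out (0.055 to 0.0996). *Il17c*, which was not tested, had 12, 4 and 4 counts in controls and 1, 0 and 1 in mutants, lower in each mutant. *Nfkbiz*, which encodes the IκBζ cofactor of *Lcn2*, did not pass (log2 fold change 0.46, edgeR adjusted p = 0.092). Its level was 54.5 to 56.3 FPKM in controls and 60.2 to 98.8 FPKM in mutants, higher in each mutant. It passed an adjusted p of 0.05 with DESeq2 and with edgeR without mutant sample 3.

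**Figure D3:**
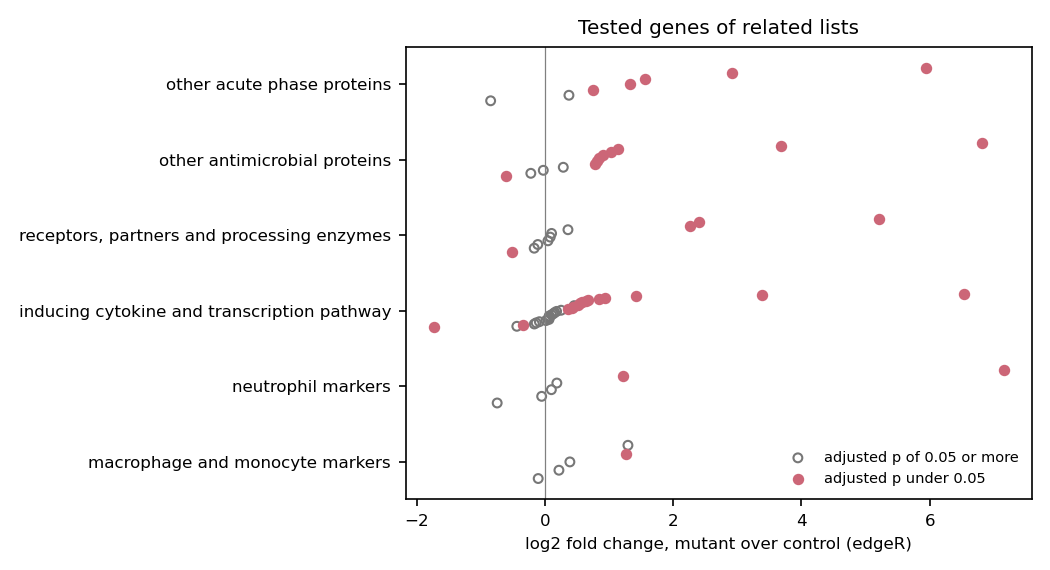
Log2 fold change, mutant over control, of each tested gene in 4 lists of related genes and 2 lists of leukocyte markers. Each point is 1 gene, filled at an adjusted p under 0.05 and open otherwise. Of the 7 acute phase genes 5 were higher, of the 12 antimicrobial genes 8 were higher and 1 lower, and of the 6 neutrophil markers 2 were higher. Over all tested genes 7.82% were higher and 5.42% lower. *Chil1*, *Klk7*, *Il1b*, *Stfa2*, *C1qb* and *Mpeg1* reached the filter only through their counts in mutant mice, and *Serpina3n* would not have reached it on its control counts.

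Finally, the genes whose log2 CPM followed that of *Saa3* most closely over the 6 samples were *Casp4* (Pearson r 0.999), *Tmprss11g* (0.998), *Serpinb5* (0.998), *Sh3bp4* (0.997) and *Sprr2d* (0.997). They were picked from all tested genes for this likeness, share the libraries with *Saa3* and are given as a description. *Casp4*, which encodes an inflammatory caspase that senses bacterial lipopolysaccharide in the cytosol, was at 0 FPKM in the controls and at 2.30, 0.68 and 0.52 FPKM in the mutants. *Sprr2d*, a cornified envelope precursor gene, was at 0.08 to 0.16 FPKM in the controls and at 39.58, 11.83 and 3.45 FPKM in the mutants. For both genes the mutants had the same order as for *Saa3*.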

How the data were processed

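RNA of 3 control and 3 mutant corneal epithelia was sequenced by the authors as single-end reads of 50 bases after rRNA depletion, filtered with SOAPnuke, aligned with Bowtie2 2.2.5 and quantified with RSEM 1.2.12. The authors deposited expected counts, in which a read that matches more than 1 gene is split between them and which are not normalized, and FPKM values scaled by transcript length and sample total. Between 34.9% and 36.0% of the expected counts above 0 were not whole. The submitters' processing notes name mm9, whereas the chromosome records of the deposited table are those of GRCm38, so coordinates are given for GRCm38. Columns of log2 fold changes, p-values and q-values that the authors deposited from their own DEGseq comparison were not used. No sample column was left out.

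Samples were grouped by the labelled genotype. Expected counts were rounded and tested with edgeR 4.0.16 in R 4.3.3 (TMM scaling, filterByExpr with min.count 10 and min.total.count 15, quasi-likelihood test on genotype). P-values were adjusted over all tested genes by the Benjamini-Hochberg method. Single genes were also compared by exact two-sided permutation of log2(FPKM + 1). Alternatives were DESeq2 1.42.0, limma 3.58.1 on log2(FPKM + 1) and log2(FPKM + 0.1), upper-quartile scaling, library totals, no filter, counts not rounded, a replicate block, other thresholds and each sample left out. The main edgeR test, DESeq2 and limma with a pseudocount of 1 were tried on simulated counts. The permutation test and the other settings were not. The members, the gene lists and the tests were chosen with earlier results of these data known. Named genes are all members, the 3 smallest adjusted p-values under 0.05 per direction of each related list, the calls and highest markers of the cell type lists, and the 5 genes most like *Saa3*; *Defb14*, *Chil1*, *Ly6g*, the stromal genes and others outside this rule were chosen after their values were seen. Promoter windows are from RefSeq.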

Additional observations from a re-analysis of the deposited data

How the results depend on the processing

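Across the alternatives *Saa3*, *Lcn2* and *Defb1* kept their direction, and *Saa3* its edgeR call. Under the stricter thresholds (adjusted p not above 0.001, fold not below 2), DESeq2 called 2 members, limma on log2(FPKM + 0.1) called 1, and edgeR called 2 with the threshold on the adjusted p relaxed to 0.05, against 0 without this and 0 in each analysis with a sample left out. Members with an adjusted p under 0.05 numbered from 2 to 4 over the other settings and from 1 to 4 with a sample left out, the lowest without control sample 2 or control sample 3 and the highest without mutant sample 1. Calls over all tested genes moved likewise. They went from 1678 with all samples to 1121, 857 and 999 without control samples 1, 2 and 3, and to 1869 without mutant sample 1. With a sample left out, the log2 fold change of *Ltf* ranged from -0.17 to 1.25 and that of *Slpi* from -0.32 to 0.80, both negative without mutant sample 1. The other acute phase genes with a call numbered 3 to 5 over the samples left out, with 3 without each control sample. The cause of these changes was not tested.

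Same-numbered samples are different mice, and their deviations correlated at 0.019, 0.048 and -0.046. These values cannot show whether same-numbered samples shared a litter or a preparation, and the labels give only the number. With a replicate block 3 members had an adjusted p under 0.05, with log2 fold changes of 8.97 for *Saa3*, 3.45 for *Lcn2* and -0.44 for *Defb1* (edgeR adjusted p = 0.0010, 0.0012 and 0.047). Counts of *Saa1* and *Saa2* summed, and of *Lyz1* and *Lyz2* summed, did not pass the filter and gave no value. At this depth *Hp*, *Saa1* and *Lyz2* are limited by counts of 24 or fewer.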
